A study of Mus musculus with 18 samples.

Results

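The collagen chains are the protein subunits from which the collagens of the extracellular matrix are built, and 44 of the 51499 loci in the deposited table carried a gene symbol made of Col, a type number, the letter a and a chain number. The rule used the symbol and no measured value, although earlier results of these data were known when it was set. The table gives 1 value per group for each locus, in FPKM (fragments scaled to transcript length and to the mapped total), so chains of different length can be set beside each other. Mouse embryonic fibroblasts labelled Ago2+/+ or Ago2-/- had been given the solvent DMSO, tunicamycin, an inhibitor of protein N-glycosylation in the endoplasmic reticulum (ER), or 500 nM thapsigargin, an inhibitor of the ER calcium pump. Each of the 6 groups held 3 libraries (18 in all), and the study asked how the Argonaute protein AGO2 shapes mRNA levels under ER stress. Both lines came from another laboratory, and the sources used here do not say whether each is 1 clone. Because the authors' value is pooled over a group's libraries, no value below has a replicate spread, no difference was tested, and the depth of the libraries is unknown.

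Each collagen molecule is a triple helix of 3 chains that are threaded into the ER during translation, hydroxylated, glycosylated and folded there, and then exported in large carriers. Fibrillar collagens such as types I, III and V form the tensile fibers of connective tissue, type IV builds the sheet of basement membranes, and the FACIT chains (fibril-associated collagens with interrupted helices) decorate fiber surfaces. Type VI forms beaded filaments, type VII anchors epithelium to the tissue beneath it, and type VIII forms hexagonal networks. Fibroblasts are the classical source of fibrillar collagen, which makes collagen a major client of their secretory pathway.

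Every value rests on group labels that the data and the library labels themselves put in doubt. Ago2 stood at 22.1 FPKM in Ago2+/+ DMSO and 20.7 in the group labelled Ago2-/- thapsigargin, against 5.75 in Ago2+/+ tunicamycin and 5.61 in Ago2-/- DMSO. It was 17.0 FPKM in Ago2+/+ thapsigargin and 15.5 in Ago2-/- tunicamycin, so its level did not separate the genotype labels, although the sources used here do not say which part of the gene was deleted. Per the study's methods, lack of AGO2 protein in the Ago2-/- line was checked by western blot, which does not bear on the labels of single libraries. Dicer1 was between 17.5 and 32.7 FPKM. For 4 of the 18 libraries the genotype labels conflict (all 3 of replicate 2 labelled Ago2+/+, and replicate 3 of Ago2-/- DMSO), and the pooled table gives no values without them. Of 12 fibroblast markers, 7 to 9 reached 1 FPKM in each group. Vim was between 952 and 2634 FPKM, while Thy1 was listed at 0 in all 6 groups and Lum stayed below 1 FPKM. No epithelial or endothelial marker reached 1 FPKM, and among 6 leukocyte markers Cd68 alone did. The summed skeletal muscle markers ran from 0.415 to 19.2 FPKM, and Myf5 was 18.9 FPKM in Ago2+/+ tunicamycin, 11.8 in Ago2-/- DMSO and listed at 0 in the other 4 groups. Des, the other muscle marker that reached 1 FPKM, did so in Ago2+/+ DMSO and Ago2-/- thapsigargin. Groups are therefore called by their labels throughout.

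Of the 44 chains, 17 reached 10 FPKM in at least 1 group, 3 more reached 1 FPKM, and 24 stayed below 1 FPKM in all 6 groups. The fibrillar class supplied 7 of the 17, the basement membrane class 4, the FACIT class 2, the beaded filament class 2, and the short-chain networks and anchoring fibrils 1 each. Chains of the transmembrane collagens, of which 4 were in the table, all stayed below 1 FPKM. The FPKM summed over all collagen chains ranged from 395 in Ago2-/- DMSO and 398 in Ago2+/+ tunicamycin to 1626 in Ago2+/+ thapsigargin and 2008 in Ago2-/- tunicamycin. Ago2-/- thapsigargin (536) and Ago2+/+ DMSO (668) lay between these pairs. The collagen chains were a small part of the transcriptome in every group, from 0.0617% to 0.357% of all FPKM. In bulk samples, fewer cells of a type and less RNA per cell cannot be told apart.

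**Figure D1:**
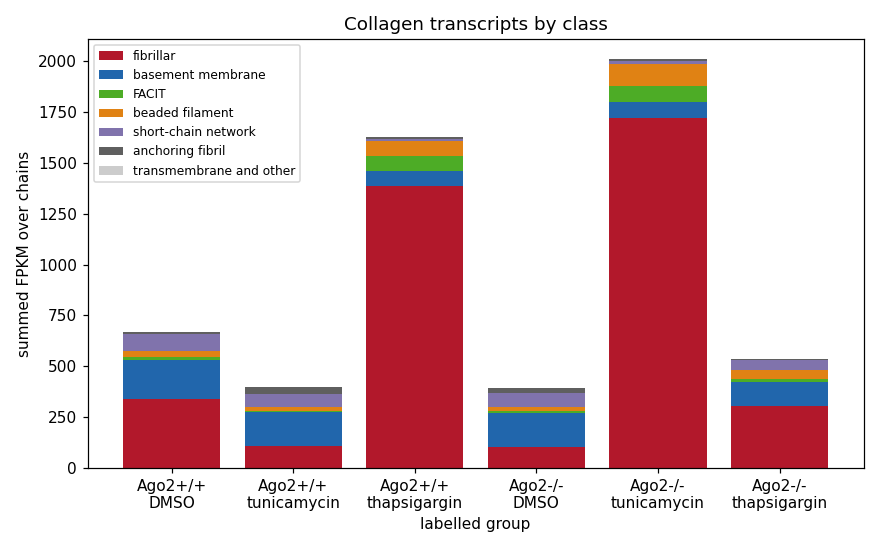
Summed FPKM of the collagen chains (y axis) in the 6 labelled groups (x axis), stacked by class, without error bars because the table gives 1 value per group. The bars for Ago2+/+ thapsigargin (1626 FPKM) and Ago2-/- tunicamycin (2008 FPKM) stand above the other 4 and consist mainly of fibrillar chains.

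The class that carried the collagen transcripts differed between groups. Fibrillar chains made up 85.3% of the collagen FPKM in Ago2+/+ thapsigargin and 85.7% in Ago2-/- tunicamycin, but 26.7% in Ago2+/+ tunicamycin and 25.6% in Ago2-/- DMSO. They made up 51.1% in Ago2+/+ DMSO and 56.9% in Ago2-/- thapsigargin. Basement membrane chains went the other way, with 42.4% in Ago2+/+ tunicamycin and 43.3% in Ago2-/- DMSO against 4.37% in Ago2+/+ thapsigargin and 3.71% in Ago2-/- tunicamycin. Their summed level moved less than that share, from 71.0 FPKM in Ago2+/+ thapsigargin to 190 in Ago2+/+ DMSO, whereas the summed fibrillar level ran from 101 FPKM in Ago2-/- DMSO to 1722 in Ago2-/- tunicamycin. The ratio of type I to type IV transcripts was 1.13, 0.233 and 14.1 in the Ago2+/+ groups under DMSO, tunicamycin and thapsigargin, and 0.214, 18.0 and 2.23 in the Ago2-/- groups. The most abundant chain was Col8a1 in Ago2+/+ tunicamycin and in Ago2-/- DMSO, Col1a2 in Ago2-/- thapsigargin, and Col1a1 in the other 3 groups.

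The fibrillar chains were led by type I collagen, the main protein of skin, tendon and bone, whose molecule holds a pair of alpha-1 chains and an alpha-2 chain. Col1a1 (chr11:94936224-94953042, plus strand, GRCm38) was 112, 6.77 and 521 FPKM in the groups labelled Ago2+/+ under DMSO, tunicamycin and thapsigargin, and 5.97, 651 and 87.1 FPKM in the groups labelled Ago2-/- in the same order. Col1a2 (chr6:4504814-4541544, plus strand) was 86.2, 26.8 and 410 FPKM in the Ago2+/+ groups and 23.7, 577 and 101 FPKM in the Ago2-/- groups. Both were lowest in Ago2-/- DMSO and Ago2+/+ tunicamycin and highest in Ago2-/- tunicamycin, and from the lowest to the highest group Col1a1 spanned 109-fold and Col1a2 24.4-fold. Col3a1, the chain of type III collagen that is laid down with type I in skin and vessels, was 9.78, 6.93 and 16.3 FPKM in the Ago2+/+ groups and 6.60, 30.9 and 13.1 FPKM in the Ago2-/- groups. Its order of groups was that of Col1a1 apart from the exchange of Ago2+/+ DMSO and Ago2-/- thapsigargin, but its span was 4.68-fold. The deposited Col3a1 locus also takes in a second annotated gene, AC125167.1.

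Type V collagen lies within type I fibers and sets their diameter, and its chains did not keep step with each other. Col5a2 (chr1:45374321-45503282, minus strand), whose 3′ end lies 24615 bases from that of Col3a1, was 97.8, 11.9 and 327 FPKM in the Ago2+/+ groups and 8.94, 320 and 83.1 FPKM in the Ago2-/- groups. Col5a1 was 32.0, 52.8 and 91.4 FPKM in the Ago2+/+ groups and 55.3, 106 and 18.8 FPKM in the Ago2-/- groups. Col5a3, the least abundant type V chain, was 2.64, 0.142 and 9.12 FPKM in the Ago2+/+ groups and 0.395, 12.1 and 1.22 FPKM in the Ago2-/- groups. Col5a2 and Col5a3 thus shared the low groups of type I, while Col5a1 was lowest in Ago2-/- thapsigargin. Col11a1, which belongs to the cartilage fiber type XI but also occurs in other tissues, was 0.411, 0.00446 and 10.8 FPKM in the Ago2+/+ groups and was listed at 0 in Ago2-/- DMSO, with 21.2 and 0.508 FPKM in Ago2-/- tunicamycin and thapsigargin. Its partner Col11a2 stayed between 0.197 and 0.634 FPKM. Col27a1, a further fibrillar chain of cartilage, reached 1.66 FPKM in Ago2+/+ thapsigargin and 1.89 in Ago2-/- tunicamycin and was between 0.00404 and 0.0186 FPKM elsewhere. Col2a1, the main chain of cartilage collagen, stayed at or below 0.425 FPKM, and Col24a1 also stayed below 1 FPKM.

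The basement membrane chains followed another order. Col4a1 and Col4a2, which together form the common type IV molecule, start head to head on chromosome 8 and their annotated genes overlap by 22 bases. Col4a1 was 98.4, 56.0 and 33.4 FPKM in the Ago2+/+ groups and 54.0, 32.6 and 47.4 FPKM in the Ago2-/- groups. Col4a2 was 59.5, 44.3 and 20.4 FPKM in the Ago2+/+ groups and 39.3, 20.6 and 28.3 FPKM in the Ago2-/- groups. Both were highest in Ago2+/+ DMSO and lowest in the pair of groups in which type I was highest, and their spans of 3.02-fold and 2.92-fold were the smallest among the 17 chains. Both genes share a single deposited locus span, so reads near the overlap may have been split between them. Col4a5, a type IV chain of kidney and skin basement membranes, was 17.9, 43.8 and 11.9 FPKM in the Ago2+/+ groups and 45.5, 14.8 and 8.39 FPKM in the Ago2-/- groups. Its neighbour Col4a6, which starts 1309 bases away on the opposite strand of the X chromosome, did not exceed 0.151 FPKM. Col18a1, whose C-terminal fragment is endostatin, was 14.2, 24.4 and 5.0 FPKM in the Ago2+/+ groups and 32.4, 6.13 and 31.4 FPKM in the Ago2-/- groups. It was high in Ago2-/- thapsigargin, the group in which Col4a5 was lowest. Col4a3, Col4a4 and Col15a1 stayed below 1 FPKM.

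Among the FACIT chains, Col12a1, which binds the surface of type I fibers in tissues under tension, was 0.965, 2.18 and 48.9 FPKM in the Ago2+/+ groups and 3.01, 55.3 and 0.863 FPKM in the Ago2-/- groups. Its high groups were those of type I, but its lowest values fell in Ago2-/- thapsigargin and Ago2+/+ DMSO, where type I was at intermediate levels. Col16a1 was 12.8, 3.41 and 22.6 FPKM in the Ago2+/+ groups and 3.57, 25.5 and 16.0 FPKM in the Ago2-/- groups, and so had the low groups of type I. Col20a1, in a locus that also holds 9230112E08Rik, stayed between 0.941 and 2.02 FPKM. The type IX chains of cartilage (Col9a1, Col9a2 and Col9a3), Col14a1, Col19a1 and Col22a1 stayed below 1 FPKM, with Col9a1 listed at 0 throughout.

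Type VI collagen needs an alpha-1, an alpha-2 and an alpha-3 chain for its usual molecule. Col6a1 was 23.8, 11.7 and 50.8 FPKM in the Ago2+/+ groups and 12.8, 77.6 and 33.8 FPKM in the Ago2-/- groups. Col6a2 was 3.29, 2.88 and 22.3 FPKM in the Ago2+/+ groups and 3.41, 30.1 and 6.11 FPKM in the Ago2-/- groups. Col6a3, the usual partner of both, stayed between 0.208 and 0.788 FPKM in all 6 groups, so the 3 partner transcripts were present at unequal levels, and Col6a4, Col6a5 and Col6a6 also stayed below 1 FPKM.

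Of the 17 chains, Col8a1 and Col7a1 were those outside the basement membrane class that were not highest in a high group of type I. Col8a1 (chr16:57624258-57754737, minus strand), a network chain of vessel walls and the cornea, was 85.6, 68.0 and 12.3 FPKM in the Ago2+/+ groups and 68.9, 11.1 and 52.5 FPKM in the Ago2-/- groups. Its partner Col8a2 was 0.0132, 0.0193 and 0.701 FPKM in the Ago2+/+ groups and 0.0181, 1.71 and 0.00611 FPKM in the Ago2-/- groups, with its higher values where Col8a1 was lowest. Col7a1 (chr9:108953586-108984875, plus strand), the chain of the anchoring fibrils of skin, was 7.43, 31.7 and 7.49 FPKM in the Ago2+/+ groups and 27.9, 7.53 and 3.21 FPKM in the Ago2-/- groups. It was thus high in the low groups of type I, and its deposited locus also takes in the microRNA gene Mir711. The remaining chains (Col10a1, Col13a1, Col17a1, Col23a1, Col25a1, Col26a1 and Col28a1) stayed below 1 FPKM, with Col13a1 listed at 0 throughout.

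**Figure D2:**
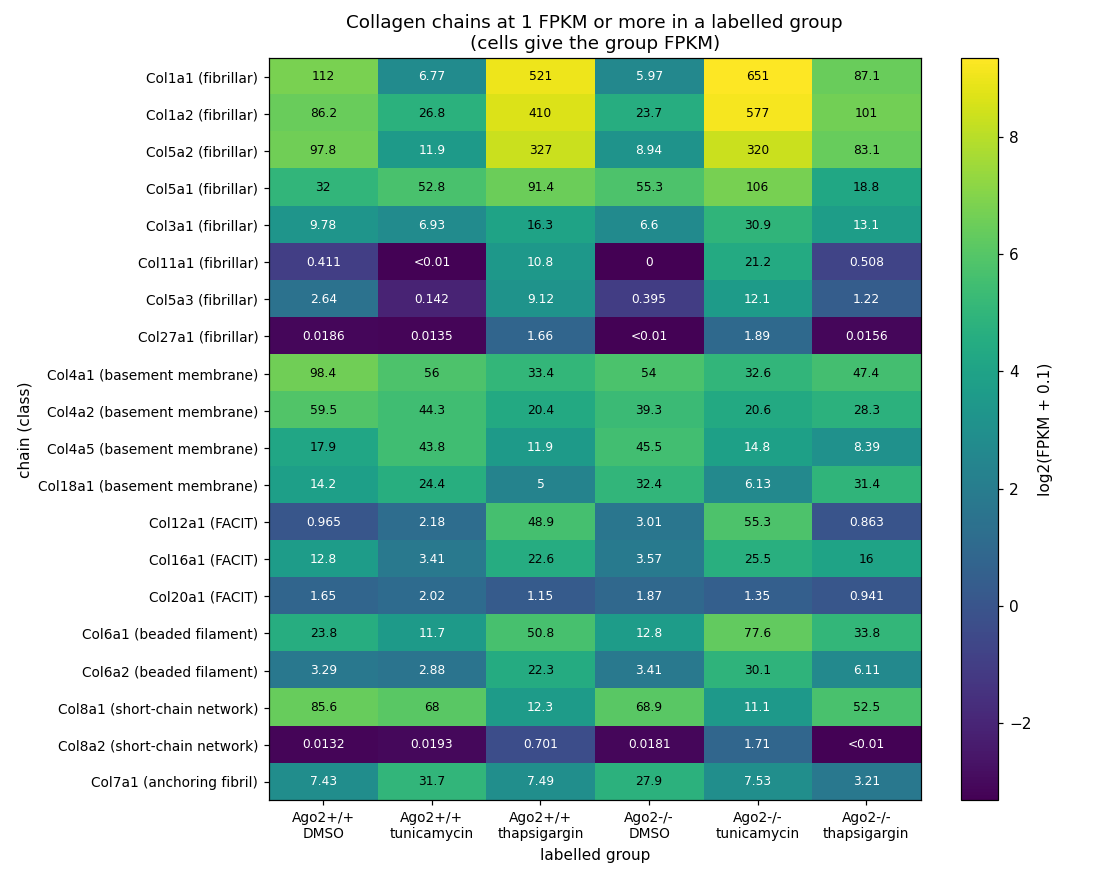
FPKM of the 20 collagen chains (rows, with their class) that reached 1 FPKM in any of the 6 labelled groups (columns); color gives log2(FPKM + 0.1) and the numbers in the cells give FPKM, 1 value per group. Most fibrillar rows are brightest in Ago2+/+ thapsigargin and Ago2-/- tunicamycin, as Col1a1 (521 and 651 FPKM) shows, whereas Col8a1 is darkest there (12.3 and 11.1 FPKM).

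Most of the abundant chains differed several-fold between their lowest and highest group. Among the 17 chains with at least 10 FPKM in a group, the median span between the lowest and the highest group (after adding 0.1 FPKM) was 7.64-fold, against 1.64-fold over the 8583 loci of the table that passed the same floor. A span over 4-fold was found in 15 of the 17, and in 10.8% of all those loci. A span over 10-fold was found in 7 of the 17, and in 6.38% of all those loci. The floor was set on the highest group, which also enters the span, for the chains and for all those loci alike. It therefore favoured wide spans in loci that passed it through their high groups alone. Of these 7 chains, Col1a2 alone kept at least 10 FPKM in every group. Spans were not counted again over loci that passed the floor in every group. Of the 17, 10 were highest in Ago2-/- tunicamycin, 3 in Ago2+/+ DMSO (Col4a1, Col4a2 and Col8a1), 2 in Ago2-/- DMSO (Col18a1 and Col4a5), and 1 each in Ago2+/+ tunicamycin (Col7a1) and Ago2+/+ thapsigargin (Col5a2).

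The bases in front of the transcription start are shown for 5 chains that stand for the different patterns and whose upstream bases no annotated exon covers. They are Col11a1 and Col5a3 (fibrillar, wide span), Col3a1 (fibrillar, narrow span), Col7a1 (high where type I was low) and Col8a1 (low where type I was high). Each is the 120 bases before the RefSeq start (GRCm38.p6), read 5′ to 3′ on the strand of the gene. Capitals mark 3 short motifs of core promoters on either strand. TATAA is known as the TATA box. CCAAT is bound by the factor NF-Y and appears as its reverse complement where it lies on the other strand. GGGCGG, the GC box, is bound by Sp1 and appears likewise as its reverse complement.
Col11a1, chr3:114030420-114030539, plus strand: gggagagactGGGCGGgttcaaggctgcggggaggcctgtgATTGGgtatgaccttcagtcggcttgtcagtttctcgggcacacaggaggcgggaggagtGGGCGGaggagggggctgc
Col5a3, chr9:20815068-20815187, minus strand: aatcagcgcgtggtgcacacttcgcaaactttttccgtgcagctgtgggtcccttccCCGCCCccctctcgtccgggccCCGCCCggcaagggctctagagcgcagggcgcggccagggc
Col3a1, chr1:45311418-45311537, plus strand: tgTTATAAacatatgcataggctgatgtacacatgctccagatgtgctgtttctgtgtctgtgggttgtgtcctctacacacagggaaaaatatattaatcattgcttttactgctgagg
Col7a1, chr9:108953466-108953585, plus strand: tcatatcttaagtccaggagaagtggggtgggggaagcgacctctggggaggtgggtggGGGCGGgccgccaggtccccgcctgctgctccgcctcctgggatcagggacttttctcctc
Col8a1, chr16:57754738-57754857, minus strand: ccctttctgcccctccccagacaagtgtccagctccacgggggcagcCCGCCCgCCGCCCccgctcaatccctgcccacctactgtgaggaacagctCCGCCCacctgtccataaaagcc
The windows of the other 4 chains hold a GC box, whatever the pattern of the chain, and that of Col3a1 holds none. In Col3a1 the capitals mark overlapping TATAA matches on both strands, which lie at the far end of the window from the start.

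RefSeq windows from 250 bases before to 50 bases after the start were found for 35 of the 44 symbols (38 windows), including 14 of the 17 chains that reached 10 FPKM. Col1a1 and Col5a2 were among the chains without a window. Both strands of each window were searched for 6 motifs, and the shares were set beside those of all 32851 windows of the same length in the table. GGGCGG was in 23 of the 38 collagen windows (60.5%), against 35.7% of all windows, and the median GC content was 59.8% against 52.7%. CCAAT was in 13 (34.2%, against 37.4% of all) and TATAA in 7 (18.4%, against 24.9% of all). The ER stress response element, which contains a CCAAT, was in 0 collagen windows and in 0.119% of all windows. The unfolded protein response element TGACGTGG was in 0 collagen windows and in 0.676% of all. The AP-1 site TGAGTCA was in 1 collagen window, that of Col6a1 (2.63%, against 5.20% of all). A match describes letters only, and the absence of one says only that these letters are not in these windows.

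Chains that build 1 molecule, and Col3a1 with Col1a1 as chains of different molecules, were compared as ratios within each group. Such ratios do not depend on how a group was scaled. The ratio of Col1a1 to Col1a2 was 1.3, 0.253 and 1.27 in the Ago2+/+ groups under DMSO, tunicamycin and thapsigargin, and 0.252, 1.13 and 0.864 in the Ago2-/- groups. In the low groups of type I the alpha-1 transcript was therefore lower than the alpha-2 transcript, unlike in 3 of the other 4 groups. The ratio of Col4a1 to Col4a2 stayed between 1.26 and 1.67, a spread of 1.32-fold over the 6 groups. The ratio of Col5a1 to Col5a2 was 0.327, 4.44 and 0.279 in the Ago2+/+ groups and 6.18, 0.331 and 0.227 in the Ago2-/- groups, a spread of 27.3-fold that crossed 1. The ratio of Col6a1 to Col6a2 ran from 2.27 in Ago2+/+ thapsigargin to 7.24 in Ago2+/+ DMSO. Col3a1 was close to Col1a1 in the low groups of type I (ratios of 1.02 and 1.11) and between 0.0313 and 0.151 of it elsewhere. The other partner pairs had at least 1 chain below 1 FPKM.

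**Figure D3:**
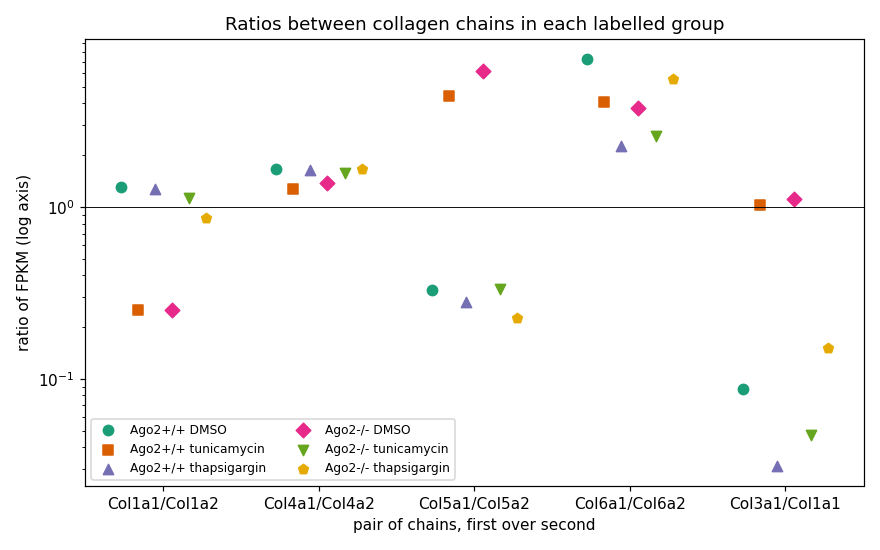
Ratio of the FPKM of 2 chains (log axis) for 5 pairs (x axis), with 1 symbol for each of the 6 labelled groups. The 6 symbols of Col4a1/Col4a2 lie together between 1.26 and 1.67, while those of Col5a1/Col5a2 fall into a pair above 1 (4.44 and 6.18) and 4 below it.

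Each stressor was then compared with DMSO under the same genotype label, which is the comparison the design implies. A locus entered if it had at least 1 FPKM in either group, and it was counted as different if its log2 ratio after adding 0.1 FPKM was at least 1 in size, which is a 2-fold difference. The added 0.1 FPKM understates the ratio of chains near 0. Under tunicamycin in the groups labelled Ago2+/+, 9 of 17 chains differed, 3 higher and 6 lower, where 20.0% of all loci differed, 10.7% higher and 9.31% lower. The lower chains were Col1a1 (log2 ratio -4.03), Col5a3 (-3.50), Col5a2 (-3.03), Col16a1 (-1.88), Col1a2 (-1.68) and Col6a1 (-1.02). The higher chains were Col7a1 (2.08), Col4a5 (1.29) and Col12a1 (1.10). A chain that passed the floor through 1 group alone had its direction fixed by the floor, which holds here for Col5a3 and Col12a1. Among the 15 chains with at least 1 FPKM in both groups, 2 were higher and 5 lower, where 11.2% of all such loci differed. The fibrillar chains among them were 3 lower and 0 higher of 5. The median over the 17 chains was -0.43, against 0.012 over all loci.

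Under thapsigargin in the groups labelled Ago2+/+, 14 of 19 chains differed, 10 higher and 4 lower, where 19.1% of all loci differed, 10.3% higher and 8.71% lower. Of 8 fibrillar chains, 7 were higher, 2 of them (Col11a1 and Col27a1) through a floor passed in thapsigargin alone. The others included Col1a1 (log2 ratio 2.22), Col1a2 (2.25), Col5a2 (1.74) and Col5a1 (1.51). Col12a1 (5.52) was higher as well and also passed the floor in thapsigargin alone, and both type VI chains were higher, Col6a2 by 2.73 and Col6a1 by 1.09. The 4 lower chains were Col8a1 (-2.79), Col4a1 (-1.56), Col4a2 (-1.54) and Col18a1 (-1.49). The basement membrane class therefore had 3 lower chains and 0 higher among 4. Among the 16 chains with at least 1 FPKM in both groups, 7 were higher and 4 lower, where 10.7% of all such loci differed, and 5 of the 6 fibrillar chains among them were higher. The median over the 19 chains was 1.09.

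Under tunicamycin in the groups labelled Ago2-/-, 16 of 20 chains differed, 12 higher and 4 lower, where 24.9% of all loci differed, 13.2% higher and 11.7% lower. Col1a1 (log2 ratio 6.75), Col5a2 (5.15), Col5a3 (4.62) and Col1a2 (4.60) were higher, as were Col12a1 (4.16), Col6a2 (3.11), Col16a1 (2.80) and Col3a1 (2.21). Col11a1 was among the 12 but has no finite fold, because it was listed at 0 in the DMSO group. Of the 8 fibrillar chains, 7 were higher and Col5a1 stayed just under the threshold (0.94). The floor fixed the direction of Col11a1, Col27a1, Col8a2 and Col5a3, which passed it with tunicamycin alone. Among the 16 chains with at least 1 FPKM in both groups, 8 were higher and 4 lower, where 15.7% of all such loci differed, and 4 of the 5 fibrillar chains among them were higher. The lower chains were Col8a1 (-2.62), Col18a1 (-2.38), Col7a1 (-1.88) and Col4a5 (-1.62). The median was 2.70 over the 20 chains and 1.57 over those 16.

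Under thapsigargin in the groups labelled Ago2-/-, 10 of 17 chains differed, 6 higher and 4 lower, where 20.4% of all loci differed, 9.43% higher and 10.9% lower. The higher chains were Col1a1 (log2 ratio 3.84), Col5a2 (3.20), Col16a1 (2.14), Col1a2 (2.08), Col5a3 (1.42) and Col6a1 (1.39). The lower chains were Col7a1 (-3.08), Col4a5 (-2.43), Col12a1 (-1.69) and Col5a1 (-1.55). Col20a1, Col5a3 and Col12a1 passed the floor through 1 group alone. Among the other 14 chains, with at least 1 FPKM in both groups, 5 were higher and 3 lower, where 11.4% of all such loci differed. The fibrillar chains among them were 3 higher and 1 lower of 5. The median over the 17 chains was -0.042, with Col18a1 (-0.04) at that value, and it was 0.39 over the 14.

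**Figure D4:**
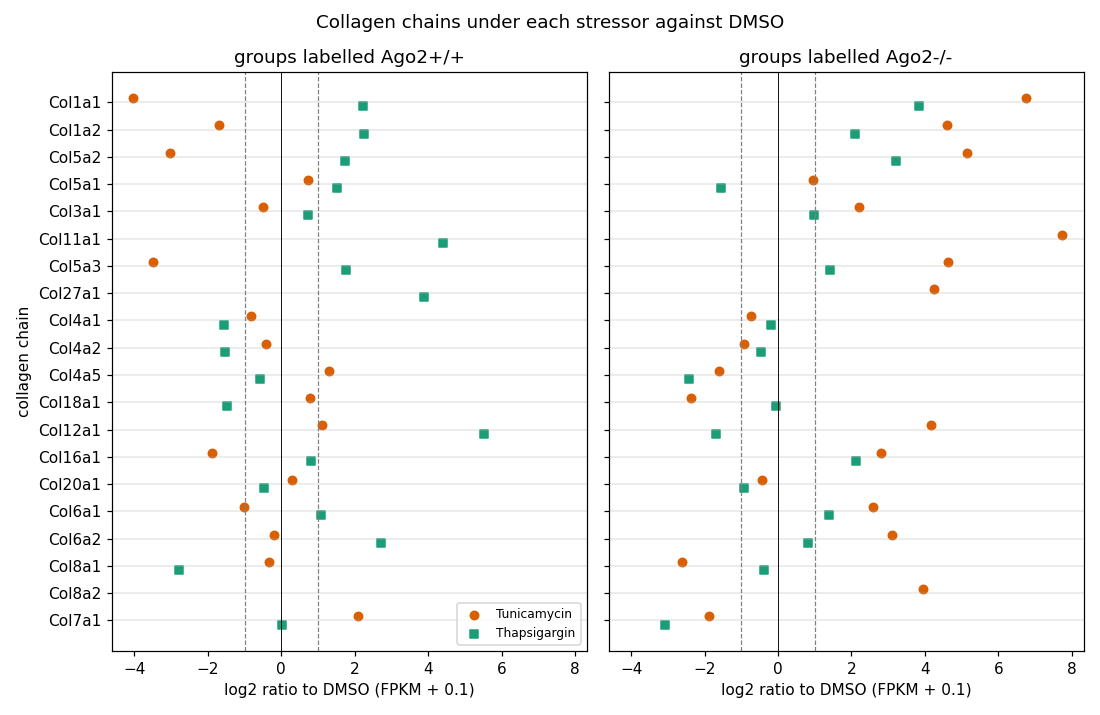
Log2 ratio of each stressor to DMSO after adding 0.1 FPKM (x axis) for the collagen chains that reached 1 FPKM (y axis), in the groups labelled Ago2+/+ (left) and Ago2-/- (right); dashed lines mark a 2-fold difference and a missing symbol means under 1 FPKM in both groups. The tunicamycin circle of Col1a1 lies at -4.03 on the left and at 6.75 on the right, and Col11a1 on the right is set against a DMSO group listed at 0, so its place depends on the added 0.1 FPKM.

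Set side by side, the tunicamycin ratios had opposite directions under the genotype labels for 8 of the 17 chains with a value in both, with each ratio at least 2-fold, where 10.1% of the 11795 loci with a value in both were opposite in this way. Col1a1, Col1a2, Col5a2, Col5a3, Col6a1 and Col16a1 were lower with tunicamycin under the label Ago2+/+ and higher under Ago2-/-, and Col4a5 and Col7a1 the reverse. Col12a1 was higher under both, and 1.39% of those loci differed in the same direction under both. For thapsigargin, 2 of 17 chains were opposite (Col12a1 and Col5a1, higher under Ago2+/+ and lower under Ago2-/-), where 7.15% of 11677 loci were. A further 5 were higher under both labels (Col1a1, Col1a2, Col5a2, Col5a3 and Col6a1), where 2.04% of those loci had the same direction in both. These counts and shares include loci that passed the floor through 1 group alone. The floor fixed both directions of Col5a3 with tunicamycin and both of Col12a1 with thapsigargin. It also fixed the direction of Col12a1 with tunicamycin under Ago2+/+ and of Col5a3 with thapsigargin under Ago2-/-. The differences between labels were not tested, since the table gives 1 value per group.

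The groups labelled Ago2-/- were compared with those labelled Ago2+/+ under the same treatment. Under DMSO, 9 of 17 chains differed, 4 higher and 5 lower, where 20.0% of all loci differed, 10.6% higher and 9.42% lower. Col1a1 (log2 ratio -4.21), Col5a2 (-3.44), Col5a3 (-2.47), Col1a2 (-1.86) and Col16a1 (-1.81) were lower in Ago2-/-, and Col7a1 (1.90), Col12a1 (1.54), Col4a5 (1.34) and Col18a1 (1.18) were higher. Without Col5a3 and Col12a1, which passed the floor in 1 group alone, 3 of 15 chains were higher and 4 lower, where 11.4% of loci with at least 1 FPKM in both groups differed. Under tunicamycin, 18 of 20 chains differed, 13 higher and 5 lower, where 24.3% of all loci differed, 13.1% higher and 11.2% lower. All 8 fibrillar chains that passed the floor were among the higher ones. They ran from Col11a1 (7.67), Col1a1 (6.57) and Col5a3 (5.65) to Col5a1, which lay at the threshold (1.00). The lower chains there were Col8a1 (-2.60), Col7a1 (-2.06), Col18a1 (-1.97), Col4a5 (-1.56) and Col4a2 (-1.10). Without Col11a1, Col27a1, Col8a2 and Col5a3, which passed the floor in Ago2-/- alone, 9 of 16 chains were higher and 5 lower, where 15.0% of loci with at least 1 FPKM in both groups differed. The median was then 1.57 in place of 2.79. Under thapsigargin, 12 of 19 chains differed, 2 higher and 10 lower, where 19.6% of all loci differed, 8.64% higher and 10.9% lower. Col12a1 (-5.67), Col5a3 (-2.80), Col1a1 (-2.58) and Col5a1 (-2.27) were among the lower chains, and Col18a1 (2.63) and Col8a1 (2.08) were the higher ones. Without Col20a1, Col11a1, Col27a1 and Col12a1, which passed the floor in 1 group alone, 2 of 15 chains were higher and 7 lower, where 11.5% of loci with at least 1 FPKM in both groups differed. The median was then -0.59 in place of -1.20. Of the fibrillar chains with at least 1 FPKM in both labels, 5 of 5 were higher in Ago2-/- under tunicamycin and 5 of 6 were lower under thapsigargin.

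All 15 pairs of groups were also counted, whatever their labels, over loci with at least 1 FPKM in either group. Between Ago2-/- DMSO and Ago2+/+ tunicamycin, 0 of 16 chains differed 2-fold, where 1.83% of all loci did. Between Ago2-/- tunicamycin and Ago2+/+ thapsigargin, 1 of 20 chains differed (Col8a2), where 2.19% of all loci did. Col8a2 passed the floor in Ago2-/- tunicamycin alone (1.71 FPKM, against 0.701 in Ago2+/+ thapsigargin), so the floor fixed its direction. Between Ago2-/- thapsigargin and Ago2+/+ DMSO, 6 of 16 chains differed, where 4.11% of all loci did, with Col18a1 higher and Col7a1, Col4a5, Col4a2, Col4a1 and Col5a3 lower in Ago2-/- thapsigargin. In the other 12 pairs, between 9 and 18 chains differed. The share of all loci was 19.1% to 24.9% in the 7 of them already described, and it was 19.7% between Ago2-/- tunicamycin and Ago2+/+ DMSO, 20.5% between Ago2-/- thapsigargin and Ago2+/+ tunicamycin, 20.9% between both stressors under Ago2-/-, 22.6% between both under Ago2+/+, and 23.1% between Ago2-/- DMSO and Ago2+/+ thapsigargin. The 3 pairs with the fewest differing loci in the whole table each joined groups that differ in both genotype label and treatment label, and in these pairs a smaller share of collagen chains differed than in any pair that shares a genotype label or a treatment label. The level of Ago2 followed the same 3 pairs (5.61 and 5.75, 15.5 and 17.0, 20.7 and 22.1 FPKM), and its part in the collagen values was not tested.

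**Figure D5:**
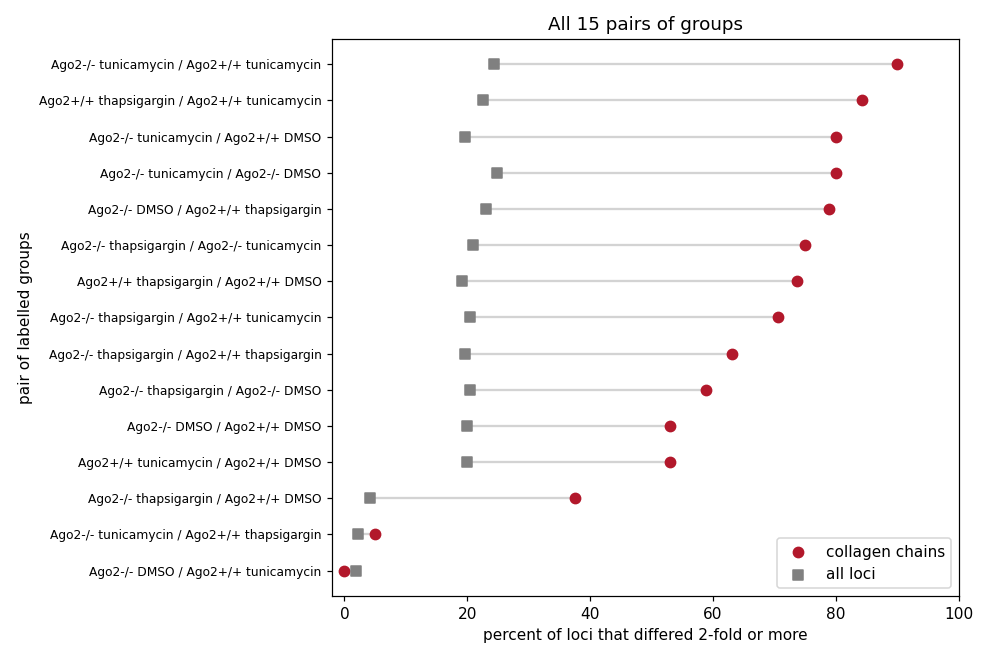
Percent of loci that differed 2-fold or more (x axis) for each of the 15 pairs of labelled groups (y axis), for the collagen chains (circles) and for all loci (squares) with at least 1 FPKM in either group. In the bottom 3 pairs 1.83% to 4.11% of all loci differed, and in the other 12 pairs 19.1% to 24.9% did.

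The enzymes and carriers that process collagen are given as lists of the pathway, counted by the same 2-fold rule. A gene that passed the floor through 1 group alone had its direction fixed by the floor. The lists were not counted again over loci with at least 1 FPKM in both groups. By that rule, 20.0% of all loci differed with tunicamycin and 19.1% with thapsigargin under Ago2+/+, and 24.9% and 20.4% under Ago2-/-. A list of 14 genes held prolyl and lysyl hydroxylases, their partner proteins (P4hb, Crtap and P3h4) and the sugar transferases Colgalt1 and Colgalt2. These act on the chains in the ER, and 13 of the 14 genes passed the floor in each stress comparison. With tunicamycin, 2 were higher and 3 lower under the label Ago2+/+, and 6 higher and 1 lower under Ago2-/-. With thapsigargin, 3 were higher and 1 lower under Ago2+/+, and 3 higher and 3 lower under Ago2-/-. P3h3, a prolyl 3-hydroxylase family member, was 4.80, 0.0983 and 19.8 FPKM in the Ago2+/+ groups and 0.0891, 21.6 and 6.24 FPKM in the Ago2-/- groups, so it had the low and the high groups of type I. P4ha3 was 0.134, 3.04 and 9.04 FPKM in the Ago2+/+ groups and 3.46, 8.31 and 0.614 FPKM in the Ago2-/- groups. P3h3 passed the floor through 1 group alone with tunicamycin under both labels and with thapsigargin under Ago2-/-. P4ha3 did so with thapsigargin under both labels and with tunicamycin under Ago2+/+. P3h2, which acts on type IV chains, was 5.37, 21.6 and 1.84 FPKM in the Ago2+/+ groups and 20.0, 1.74 and 5.33 FPKM in the Ago2-/- groups, with its low values in the high groups of type I.

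The list of 10 collagen chaperones and export factors filled 10 loci, since 9 of the genes had a locus and Mia3 had 2. With tunicamycin 1 locus was higher and 0 lower under the label Ago2+/+, and 4 were higher and 0 lower under Ago2-/-. With thapsigargin 3 of 10 were higher under Ago2+/+, and 4 of 9 were lower under Ago2-/-, beside 19.1% and 20.4% of all loci differing. Both Mia3 loci were among these 4, so the count holds a single gene more than once. The tunicamycin counts stand beside 20.0% and 24.9% of all loci. Creb3l1, an ER-bound transcription factor that activates type I collagen genes, was 0.124, 1.08 and 51.2 FPKM in the Ago2+/+ groups and 0.988, 53.3 and 0.171 FPKM in the Ago2-/- groups. It was the 1 higher locus with tunicamycin under Ago2+/+. The floor fixed its direction there, with tunicamycin under Ago2-/- and with thapsigargin under Ago2+/+, since it passed in the stressed group alone. Serpinh1, which encodes the collagen chaperone HSP47, was 371, 562 and 904 FPKM in the Ago2+/+ groups and 544, 901 and 299 FPKM in the Ago2-/- groups. Fkbp14, an ER prolyl isomerase, was 2.25, 3.99 and 17.7 FPKM in the Ago2+/+ groups and 4.30, 22.9 and 1.39 FPKM in the Ago2-/- groups. All 3 genes were highest in the high groups of type I and lowest or next to lowest in Ago2-/- thapsigargin and Ago2+/+ DMSO, as Col12a1 was. They were named because their ratios were the largest of the list, so their order of groups does not stand for the whole list.

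Among 8 procollagen proteinases and enhancers, which trim the ends of the chains outside the cell, 0 were higher and 1 lower of 4 with tunicamycin under the label Ago2+/+, and 3 were higher and 1 lower of 6 under Ago2-/-. With thapsigargin 2 were higher and 1 lower of 6 under Ago2+/+, and 0 of 4 differed under Ago2-/-. The shares of all loci that differed were, in the same order, 20.0%, 24.9%, 19.1% and 20.4%. Adamts2, the main procollagen N-proteinase, was 6.74 FPKM in Ago2+/+ thapsigargin and 9.21 in Ago2-/- tunicamycin and between 0.0121 and 0.133 FPKM elsewhere. Tll1, a relative of the C-proteinase Bmp1, was 7.69 FPKM in Ago2+/+ thapsigargin and 4.58 in Ago2-/- tunicamycin, at most 0.0478 in Ago2+/+ DMSO and Ago2-/- thapsigargin, and listed at 0 in the other 2 groups. The floor fixed the direction of Adamts2 and Tll1, which passed it in Ago2+/+ thapsigargin and Ago2-/- tunicamycin alone. They were the 2 higher genes with thapsigargin under Ago2+/+ and were among the 3 with tunicamycin under Ago2-/-. Pcolce2, a procollagen proteinase enhancer, was 16.0, 4.75 and 3.43 FPKM in the Ago2+/+ groups and 5.75, 2.34 and 7.59 FPKM in the Ago2-/- groups.

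The 5 lysyl oxidases, which crosslink collagen in the matrix, all passed the floor. With tunicamycin 1 was higher and 2 lower under the label Ago2+/+, and 4 were higher and 0 lower under Ago2-/-. With thapsigargin 4 were higher and 0 lower under Ago2+/+, and 2 were higher and 1 lower under Ago2-/-. All loci differed in 20.0%, 24.9%, 19.1% and 20.4% of cases in these comparisons, in that order. Lox was 0.00895, 44.2 and 101 FPKM in the Ago2+/+ groups and 42.2, 114 and 0.00551 FPKM in the Ago2-/- groups, so it was near 0 in Ago2+/+ DMSO and Ago2-/- thapsigargin and not in the low groups of type I. Loxl2 was 4.51, 0.0405 and 32.0 FPKM in the Ago2+/+ groups and 0.0267, 44.8 and 1.09 FPKM in the Ago2-/- groups. Loxl2 was thus near 0 where Lox was not, in the low groups of type I. The floor fixed the direction of Loxl2 with tunicamycin under both labels and of Lox with tunicamycin under Ago2+/+. With thapsigargin it fixed that of Lox under both labels and of Loxl2 under Ago2-/-. Loxl3 was 3.97, 1.25 and 13.0 FPKM in the Ago2+/+ groups and 1.02, 15.2 and 5.16 FPKM in the Ago2-/- groups.

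Of the 8 collagen receptors, 1 of 6 was higher and 0 lower with tunicamycin under the label Ago2+/+, and 2 of 7 were higher and 0 lower under Ago2-/-. With thapsigargin 1 of 7 was higher and 0 lower under Ago2+/+, and 1 of 6 was higher and 1 lower under Ago2-/-. These counts of 0 to 2 receptors are near the background, which was 20.0%, 24.9%, 19.1% and 20.4% of all loci in the same order. Itga11, the alpha subunit of a fibroblast receptor for type I collagen, was 4.29 FPKM in Ago2+/+ thapsigargin and 7.27 in Ago2-/- tunicamycin, and between 0.00604 and 0.0238 FPKM elsewhere. It passed the floor in these groups alone, so the floor fixed its direction. It was the 1 higher receptor with thapsigargin under Ago2+/+ and was among the 2 with tunicamycin under Ago2-/-. Mrc2, an endocytic collagen receptor, was 17.9, 9.63 and 16.5 FPKM in the Ago2+/+ groups and 7.89, 22.7 and 21.8 FPKM in the Ago2-/- groups. Ddr2, a receptor kinase for fibrillar collagen, was 88.2, 183 and 159 FPKM in the Ago2+/+ groups and 191, 157 and 76.3 FPKM in the Ago2-/- groups.

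The levels of the marker lists differed between the groups as well. The summed FPKM of the 12 fibroblast markers ran from 2758 in Ago2+/+ thapsigargin and 2823 in Ago2-/- tunicamycin, the high groups of type I, to 4154 in Ago2+/+ tunicamycin and 4189 in Ago2-/- DMSO, the low groups. Members of that list differed in direction. Vim, an intermediate filament protein, was 1439, 2634 and 1181 FPKM in the Ago2+/+ groups and 2580, 952 and 1290 FPKM in the Ago2-/- groups. S100a4, in a locus that also holds S100a3 and Gm42674, was 1967, 937 and 285 FPKM and 1004, 330 and 1926 FPKM in the same order. Both were lowest in the high groups of type I. Sparc, which binds collagen, was 221, 227 and 664 FPKM in the Ago2+/+ groups and 214, 863 and 127 FPKM in the Ago2-/- groups. Fn1, which encodes fibronectin, was 46.4, 290 and 567 FPKM in the Ago2+/+ groups and 326, 600 and 95.2 FPKM in the Ago2-/- groups, so Sparc and Fn1 were highest in those groups. The summed cartilage and bone markers ran from 9.95 FPKM in Ago2+/+ DMSO to 27.7 in Ago2-/- DMSO, and within that list Runx2 was 20.6 and 21.3 FPKM in the low groups of type I and 8.14 to 14.4 elsewhere. Myf5 was present where type I was lowest, whereas Des, of the same skeletal muscle list, was lowest there. Des was 2.95 FPKM in Ago2+/+ DMSO and 2.58 in Ago2-/- thapsigargin, and stayed below 1 FPKM in the other groups. The part of these markers in the collagen values was not tested.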

How the data were processed

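RNA of mouse embryonic fibroblasts was sequenced in 18 libraries, 3 in each of 6 groups. Per the submitters' processing notes, FastQC 0.11.7, HISAT2 2.1.0, StringTie 1.3.4d and Cuffdiff 2.2.1 were used with GRCm38; the sources used here name neither library scaling nor strandedness. The deposited table has 772485 rows, 1 for each of 51499 loci and 15 pairs of groups. Its FPKM is 1 value per group made by the authors. Columns with the authors' fold changes, test statistics, p-values and q-values were not used. Groups named DCR1 in the table are Ago2+/+ by their source or genotype labels.

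Low FPKM were searched for the steps of whole reads. At the best of many step sizes tried, 22.8% to 25.1% fell within 0.1 of whole multiples. Without steps a fixed size gives 20%, and the best of many sizes can lie above that. No steps could be read from these shares, so depth is unknown. The number of libraries and the pooling limit the precision.

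Ratios were log2((b + 0.1)/(a + 0.1)) for loci with at least 1 FPKM in either group, and 2-fold or more was counted, without a test. The computation was run on a copy of the Ago2+/+ DMSO values with known changes set in and no noise. That checks the arithmetic alone. Values in all groups are given for chains with at least 10 FPKM and their partners, values or ranges for chains from 1 to 10 FPKM, and names or ranges for the rest. Pathway lists have up to 3 genes each, those with the largest ratio. The member rule and all lists were chosen with earlier results of these data known. Alternatives changed the pseudocount, the floor, the fold, the scaling and the loci with several genes, and counts over loci with at least 1 FPKM in both groups were added after the values were seen. Coordinates are 1-based. Tools were Python 3.11.15, numpy 2.4.6, pandas 2.3.3 and matplotlib 3.10.9.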

Additional observations from a re-analysis of the deposited data

How the results depend on the processing

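No paired analysis was possible because the table gives 1 pooled value per group, and for the same reason no library could be left out, the 4 with conflicting labels included. Among the 20 chains that reached 1 FPKM in a group, no ratio of at least 2-fold reversed, but the alternatives run could hardly reverse one. The same pseudocount added to both groups keeps the direction of a ratio. Another floor, another fold or leaving out loci with several genes does not alter the ratio of a chain. Scaling alone could reverse a ratio, and its shifts were small beside a 2-fold difference. The absence of reversals is therefore no evidence that the directions are robust. The count of differing chains stayed within 1.5 times under 64 of 70 alternatives and the median log2 ratio within its limit under 42 of 56. With no floor on FPKM, the count was 14 in place of 9 for tunicamycin under Ago2+/+ and 15 in place of 9 between the labels under DMSO. At a 4-fold threshold those counts were 4 and 3, and thapsigargin gave 7 in place of 14 under Ago2+/+ and 6 in place of 10 under Ago2-/-. With no floor the medians were 0.33 for thapsigargin under Ago2+/+, 0.62 for tunicamycin under Ago2-/-, and 0.55 and -0.33 between the labels under tunicamycin and thapsigargin, where chains near 0 enter. With a pseudocount of 1 FPKM the medians were 1.80 for tunicamycin under Ago2-/- and 1.76 between the labels under tunicamycin, in place of 2.70 and 2.79. For thapsigargin under Ago2-/- the median of -0.042 changed sign, to 0.39 with a floor of 5 FPKM, 0.013 with upper-quartile scaling and 0.39 without loci that hold several genes, and between the labels under thapsigargin it was -1.91 without those loci, in place of -1.20. A floor of 1 FPKM in both groups, chosen after seeing the data, gave medians of 1.57 for tunicamycin and 0.39 for thapsigargin under Ago2-/-, and 1.57 and -0.59 between the labels under tunicamycin and thapsigargin. The 30 ratios between 2 chains, those of Col3a1 to Col1a1 included, stayed within 1.5 times with a pseudocount of 1 FPKM, as when Col6a1 to Col6a2 in Ago2+/+ DMSO went from 7.24 to 5.78. Among the log2 ratios of the 20 chains, 29 moved, all with another pseudocount.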

Other observations

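Proteins that carry a short collagen-like helix but are not collagens were listed as well, and 11 of the 31 loci reached 1 FPKM in at least 1 group. With tunicamycin 2 were higher and 2 lower of 8 under the label Ago2+/+, and 6 were higher and 2 lower of 11 under Ago2-/-. With thapsigargin 5 were higher and 2 lower of 10 under Ago2+/+, and 1 was higher and 4 lower of 9 under Ago2-/-. The shares of all loci that differed were 20.0%, 24.9%, 19.1% and 20.4% in the same order. The floor fixed the direction of differing loci that passed it in 1 group alone. With thapsigargin under Ago2+/+ these were C1qtnf1, C1qtnf5, Scara3 and Emilin2, all higher, and Eda, lower. With tunicamycin they were Scara3 under Ago2+/+, and C1qtnf1, C1qtnf5, Scara5 and Eda under Ago2-/-. With thapsigargin under Ago2-/- they were Scara3, Scara5 and Emilin2. Emilin1, an elastic fiber protein, was 2.60, 9.0 and 45.3 FPKM in the Ago2+/+ groups under DMSO, tunicamycin and thapsigargin, and 9.50, 58.1 and 2.85 FPKM in the Ago2-/- groups. Scara3, a scavenger receptor family member, was 0.00632, 1.52 and 6.36 FPKM in the Ago2+/+ groups and 1.54, 7.58 and 0.0220 FPKM in the Ago2-/- groups. Both were highest in the groups in which type I collagen was highest and lowest in Ago2+/+ DMSO and Ago2-/- thapsigargin. C1qtnf5, in a locus that also holds Mfrp, was 1.38 FPKM in Ago2+/+ thapsigargin and 1.59 in Ago2-/- tunicamycin and stayed below 1 FPKM in the other 4 groups.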
